A study of Mus musculus with 8 samples.

Results

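The subject is a set of 165 array probes that carried a value on all 4 arrays of control (Neo) muscle cells and on none of the 4 arrays of HDAC4 cells, out of 31769 probes. They were chosen by the presence and absence of deposited values, so their absence on the HDAC4 arrays is the rule and not a finding, and no fold change can be given for them. The study infected C2C12, a cell line of mouse myoblasts whose cells fuse to form myotubes, with retroviruses. The HDAC4 group (n = 4) came from cells stably selected with a virus that encodes both HDAC4 and the Neo selection gene, and the Neo group (n = 4) from cells selected with a virus that encodes Neo alone. All cultures reached 90% confluence and then spent 4 days in 2% horse serum, which starts differentiation. The labels name no clone, and nothing in them says whether the samples of a group were separate cultures, so p-values measure sample-to-sample spread alone, and that spread may be technical. Each array held the cells' RNA in Cy5 and a common murine reference RNA in Cy3, which a labelling protocol describes as liver. No dye swap was made, and the deposited log2 ratios are read as cells over reference, the likely direction, since muscle markers were far above 0.

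HDAC4 is a class IIa histone deacetylase. In muscle, proteins of this class bind the MEF2 transcription factors at their target genes and hold transcription down until signals move the deacetylase out of the nucleus. A 2-colour array gives, for each probe, the signal of the cells over that of the reference, and a probe can be left without one. The labels and file do not say why a value is missing. In bulk RNA fewer cells of a type and less RNA per cell cannot be told apart.

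The HDAC4 arrays carried 17014 to 18521 values and the Neo arrays 19248 to 22193, and the ranges did not overlap. The muscle markers used to check the cell type (Acta1, Ckm, Myog, Des and others) had values for 7 or 8 of their 8 probes on every array. Their median log2 ratio lay between 7.44 and 8.36 on HDAC4 arrays and between 8.27 and 8.56 on Neo arrays. Liver markers had values for 4 to 7 of 28 probes on HDAC4 arrays and for 5 to 10 on Neo arrays. Their median log2 ratio lay between -1.28 and -0.42 on HDAC4 arrays and between -0.99 and 0.27 on Neo arrays. Adipocyte markers had values for 3 of 12 probes on HDAC4 arrays and 4 or 5 on Neo arrays, osteoblast markers for 0 or 1 of 4 and 1 or 2, and fibroblast markers for 5 or 6 of 7 in both groups. No probe of these marker lists met the rule, and their part in the results was not tested. The annotation used here pairs no probe with the symbol Hdac4, so the level of the introduced gene was not checked.

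Presence of values was lopsided across the whole platform. The 165 probes are 0.668% of the 24695 probes with a value on any array, those of Dmd left out. The opposite pattern, a value on all 4 HDAC4 arrays and on no Neo array, was met by 2 probes, or 0.00810%. Of the other 24530 probes with a value, 31.4% had more values on Neo arrays and 3.82% had more on HDAC4 arrays. What part the lower number of values on the HDAC4 arrays plays in the membership was not tested. A probe of Dmd also met the rule and is left out.

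**Figure D1:**
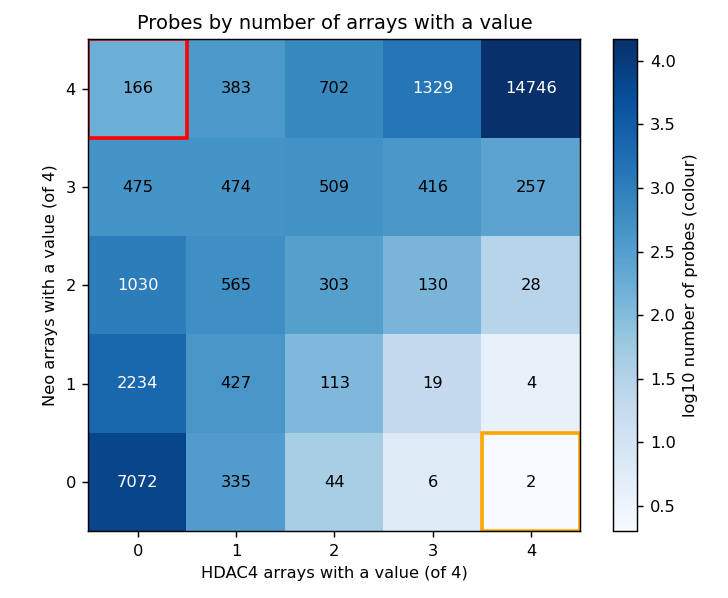
Number of probes by how many of the 4 HDAC4 arrays (horizontal) and of the 4 Neo arrays (vertical) carried a value, with colour on a log10 scale. The red square holds the 165 probes and the Dmd probe (166 in all), and the orange square the 2 probes of the opposite pattern.

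Leaving out an array loosens the rule, so the count can only rise, and the size of the rise differed between arrays. The rule was met by 327 probes without HDAC4 replicate 1, 189 without HDAC4 replicate 2, 286 without HDAC4 replicate 3 and 240 without HDAC4 replicate 4. It was met by 403 without Neo replicate 1, 312 without Neo replicate 2, 197 without Neo replicate 3 and 223 without Neo replicate 4. Without both arrays numbered 1 the count was 588. Just outside the rule stood 382 probes with 1 HDAC4 value beside 4 Neo values, and in 162 of them (42.4%) the lone value was on HDAC4 replicate 1. A further 475 probes had no HDAC4 value and 3 Neo values, and in 238 of them (50.1%) the missing array was Neo replicate 1. The median Neo log2 ratio was 0.06 for the 165 probes, 0.03 for the 382 and 0.14 for the 475, so the neighbouring probes lay at similar levels.

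Of the 165 probes, 107 named 1 gene in the platform annotation, which gives 106 genes because the pancreatic amylase gene Amy2a5 had 2 probes. Another 2 probes named several genes, and 56 were not listed. The share with 1 gene (64.8%) was near the 64.3% of all probes with 4 Neo values. Of the named members 54 had a mean Neo log2 ratio above 0 and 53 below 0, and the range ran from -4.65 for Spint2 to 1.66 for Asb11. The 58 members without a single gene ran from -2.89 to 2.67. A mean log2 ratio of 1, where the cells' signal is 2 times that of the reference, was reached by 11 of the 165, and 22 lay at -1 or lower. Of all 17324 probes with 4 Neo values 2411 reached 1 and 2778 lay at -1 or lower.

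The values fall on a grid that shows where the reference signal was at a minimum. Among ratios between 1 and 3, those that are whole multiples of 0.1 were far more common (11504 of 69274 values) than the other hundredths of that step (583 values each at the median). Such a grid arises if the reference was held at 10 units, so that 10 times the ratio is the cells' own signal. It is inferred from the values, and the counts just given show that a few such values fall on the grid without it. Below, a value on this grid at a ratio of 1 or more is called a floor value. Of the 660 Neo values of the members 187 (28.3%) were floor values, against 5.55% for all probes with 4 Neo values. The share was 34.0% for probes with 3 Neo values and no HDAC4 value, 21.7% for those with 4 and 1, and 14.5% for those with 4 and 2 or 3, so the neighbouring classes also held many floor values. Neo replicate 1 had floor values for 80 of the 165 members, and Neo replicates 2, 3 and 4 for 39, 31 and 37. Among all values of an array, Neo replicate 1 also had the highest share of the Neo arrays, 12.2%. The share was 8.04%, 8.77% and 9.14% on Neo replicates 2, 3 and 4.

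The members are described below by their number of floor values. Since a floor value is a ratio of 1 or more, the order of the levels that follow comes with the definition and is no finding. In 15 probes all 4 Neo values were floor values, with a median log2 ratio of 0.90, and in 75 probes 1 to 3 of them were, with a median of 0.31. The other 75 probes had no floor value and a median of -0.73, and 67 of these lay below 0. In the 22 with a mean of -1 or lower, the highest mean was -1.02, so the reference signal exceeded that of the cells on average. Hcst, a signalling adaptor gene of immune cells, was the exception on a single array, with a ratio of 1.248 on Neo replicate 1. The HDAC4 arrays, whose labels name the same reference, gave no value for these probes.

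**Figure D2:**
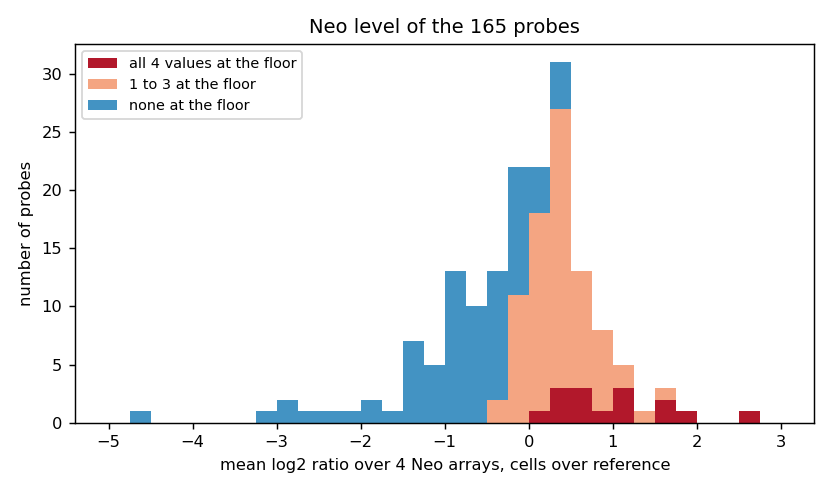
Number of probes (vertical) by mean log2 ratio of Neo cells over the reference on 4 Neo arrays (horizontal), coloured by how many of the 4 values were floor values. Probes with all 4 values at the floor lie between 0.17 and 2.67, and those with none between -4.65 and 0.38.

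Members in the muscle gene lists were Asb11, Tmod4 and Hdac9. Asb11 encodes an ankyrin repeat and SOCS box protein, a substrate adaptor of cullin ubiquitin ligases. Its member probe had no value on any HDAC4 array and ratios of 1.7, 4.2, 3.7 and 3.8 on Neo replicates 1 to 4 (log2 mean 1.66 ± 0.60, SD, n = 4), all of them floor values. Neo replicate 1 was the low one. It was the highest named member. Of the 23 probes with a value for Asb, Kelch and related ubiquitin ligase adaptors of muscle, this was the only member. Just outside the rule stood Asb12, with a ratio of 1.4 on HDAC4 replicate 1 alone and 2.2, 1.7, 2.2 and 2.4 on Neo arrays, and Asb14, with 5.4 on HDAC4 replicate 3 alone and 3.4, 4.4, 11.7 and 3.6 on Neo arrays. In Asb14 the lone HDAC4 value lay within the range of the Neo values, and in Asb12 it lay below them.

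Tmod4 encodes the skeletal muscle tropomodulin, which caps the pointed ends of thin filaments. It had no HDAC4 value and ratios of 2.1, 1.75, 2.338 and 2.279 on Neo replicates 1 to 4 (log2 mean 1.07 ± 0.19, SD, n = 4), with 1 floor value. The 4 Neo arrays lay close together. It was the only member among 69 probes with a value for the contractile apparatus, of which 54 had values on all 8 arrays. The annotation lists no other probe for it. The cardiac and slow myosin light chain gene Myl2 stood just outside, with no HDAC4 value and 4.5, 1.4 and 1.7 on Neo replicates 1, 3 and 4.

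Hdac9 encodes another class IIa histone deacetylase that binds MEF2. Its member probe had no HDAC4 value and ratios of 1.6, 1.1, 1.2 and 1.4 on Neo replicates 1 to 4 (log2 mean 0.39 ± 0.24, SD, n = 4), all floor values close to the minimum. Its other 2 probes gave a single value between them, 1.664 on Neo replicate 4. Hdac9 was the only member among 30 probes with a value for MEF2 and myogenic regulators. Myh13, the extraocular muscle myosin heavy chain, is in no list and was picked out after its values were seen. It had no HDAC4 value and floor values of 1.1, 1.1, 1.5 and 3 on Neo replicates 1 to 4, with replicate 4 the high one.

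Pdgfd and Ctsf were the members among growth factors and proteases of the lists. Pdgfd encodes a platelet-derived growth factor ligand that acts on the beta receptor. Its member probe had no HDAC4 value and floor values of 1.8, 2.3, 1.9 and 3.5 on Neo replicates 1 to 4 (log2 mean 1.20 ± 0.44, SD, n = 4), with replicate 4 the highest. None of the other 10 probes with a value for PDGF ligands and receptors was a member. Ctsf encodes cathepsin F, a lysosomal cysteine protease, and had no HDAC4 value and floor values of 1.6, 2.1, 2.2 and 2.5 on Neo replicates 1 to 4 (log2 mean 1.05 ± 0.27, SD, n = 4). It was 1 of 16 probes with a value for cathepsins and lysosomal proteases. These lists were drawn up with both genes known to be members, so the counts say nothing of an excess.

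The promoters of Asb11, Tmod4, Pdgfd and Ctsf are shown because these are the genes that mark the set. They come from RefSeq on GRCm38.p6, are written on the gene's strand, and reach from 250 bases before the start site to 50 after it. Capitals mark E-boxes (CANNTG on either strand). Myogenic factors of the MyoD family bind some forms of this sequence, and a mark does not say which factor would bind.
Asb11, chrX:164436744-164437043, plus strand: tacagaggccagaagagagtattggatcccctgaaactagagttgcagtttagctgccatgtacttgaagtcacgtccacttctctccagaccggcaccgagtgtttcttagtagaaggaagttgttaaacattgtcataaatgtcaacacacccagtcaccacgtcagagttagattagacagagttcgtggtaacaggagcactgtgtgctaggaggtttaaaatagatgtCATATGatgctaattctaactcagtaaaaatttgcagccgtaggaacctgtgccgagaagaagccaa
Tmod4, chr3:95124264-95124563, plus strand: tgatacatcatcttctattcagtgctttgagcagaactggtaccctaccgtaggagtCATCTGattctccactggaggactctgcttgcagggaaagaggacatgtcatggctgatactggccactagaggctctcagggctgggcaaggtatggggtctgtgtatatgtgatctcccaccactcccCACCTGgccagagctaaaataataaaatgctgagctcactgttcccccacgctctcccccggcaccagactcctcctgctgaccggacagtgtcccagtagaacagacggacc
Pdgfd, chr9:6168236-6168535, plus strand: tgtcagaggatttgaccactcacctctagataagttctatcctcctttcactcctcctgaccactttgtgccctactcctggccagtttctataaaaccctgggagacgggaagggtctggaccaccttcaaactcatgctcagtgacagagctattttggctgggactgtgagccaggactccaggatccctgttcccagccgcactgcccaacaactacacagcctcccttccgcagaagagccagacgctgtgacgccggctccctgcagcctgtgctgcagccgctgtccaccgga
Ctsf, chr19:4854915-4855214, plus strand: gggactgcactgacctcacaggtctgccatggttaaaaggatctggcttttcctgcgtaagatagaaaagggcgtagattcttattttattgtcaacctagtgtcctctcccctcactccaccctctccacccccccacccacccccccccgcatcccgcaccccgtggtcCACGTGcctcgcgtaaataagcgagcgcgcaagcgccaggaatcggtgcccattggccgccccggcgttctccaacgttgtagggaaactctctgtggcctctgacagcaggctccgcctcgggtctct

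Tmod4 held 2 E-boxes in this window, Asb11 1, Ctsf 1 and Pdgfd 0. Over the named members, 91 of 106 gene identifiers matched a promoter, with 117 windows in all. An E-box was in 64.1% of them, against 63.1% of the 8363 windows of genes with a probe valued on all 8 arrays and 72.3% of all 32851 windows. The MEF2 motif was found in 0 of the 117 windows, in 1.72% of those of genes valued on all 8 arrays and in 3.19% of all. TATAAA, the core of the TATA box, was in 17.1% of the members' windows, 7.52% of those of genes valued on all 8 arrays and 13.6% of all. All motifs were searched on both strands, a stretch can count for the MEF2 motif and for TATAAA at once, and a match or its lack describes these letters in this window alone.

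The other named members at the top were mostly genes with no special tie to muscle. Ly6g2, of the Ly6 family of small membrane-anchored proteins, had no HDAC4 value and ratios of 1.3, 4.1, 4.5 and 3.3 on Neo replicates 1 to 4. Amy2a5 had no HDAC4 value on its 2 member probes. The higher had 6.42, 1.6, 3.2 and 2.168 on Neo replicates 1 to 4, and the lower 0.771, 1.5, 1.1 and 1.252. Of its other probes, M300008880 had 1.7 on HDAC4 replicate 4 alone and 1.2, 0.871, 1.103 and 1.4 on Neo replicates 1 to 4. M300008879 had no HDAC4 value and 1.2 and 0.998 on Neo replicates 1 and 3 alone. Ly6g2 and Amy2a5 belong to families of near-identical genes, so their probes may report relatives, and their Neo arrays differed widely among themselves.

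Atp6v1c2, a subunit of the vacuolar proton pump, had no HDAC4 value and 1.9, 1.2, 4.7 and 3.678 on Neo replicates 1 to 4. Rnf32, a RING finger protein gene, had no HDAC4 value and 1.5, 2.7, 2.8 and 2.7. Rftn2, which encodes a raftlin of lipid rafts, had no HDAC4 value on its member probe and 2.8, 2.5, 1.9 and 2.045. Neo replicate 1 was the low array for Rnf32 and the high one for Rftn2, so the members did not share 1 order of the arrays.

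Dock6 had no HDAC4 value on its member probe and 3, 2.8, 1.645 and 1 on Neo replicates 1 to 4, which reaches the lowest floor value there is. Its other probe M300013065 had 0.288, 0.809, 0.908 and 0.894 on HDAC4 replicates 1 to 4. On Neo replicates 1 to 4 that probe had 0.496, 0.754, 0.803 and 0.625. A further Dock6 probe, M300013066, had 3 HDAC4 values and 3 Neo values. Fgf5, a fibroblast growth factor known for ending hair growth, had no HDAC4 value and 2.1, 2, 1.807 and 1.8. Tlx2, a homeobox gene of the peripheral nervous system, had no HDAC4 value and 2, 1.7, 1.844 and 1.9. Fgf5 and Tlx2 had small spreads, with SDs of 0.11 and 0.10 on the log2 scale (n = 4 Neo arrays), against 0.74 for Dock6.

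Rpgr, a ciliary protein gene, had no HDAC4 value on its member probe and 2, 2.578, 1.3 and 2.003 on Neo replicates 1 to 4. Tmtc2, a membrane protein gene of the endoplasmic reticulum, had no HDAC4 value on its member probe and 1.4, 2.4, 2.1 and 1.7. The calcium genes Atp2b3, a plasma membrane calcium pump, and Cacnb4, a beta subunit of voltage-gated calcium channels, had mean Neo log2 ratios of 0.84 ± 0.39 and 0.77 ± 0.29 (SD, n = 4). Gm7008, Olfr166 and Myo15 lay at 0.67, 0.64 and 0.61. Myo15, the unconventional myosin of inner ear hair bundles, spread least of the named members, with ratios between 1.5 and 1.591 on the Neo arrays.

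**Figure D3:**
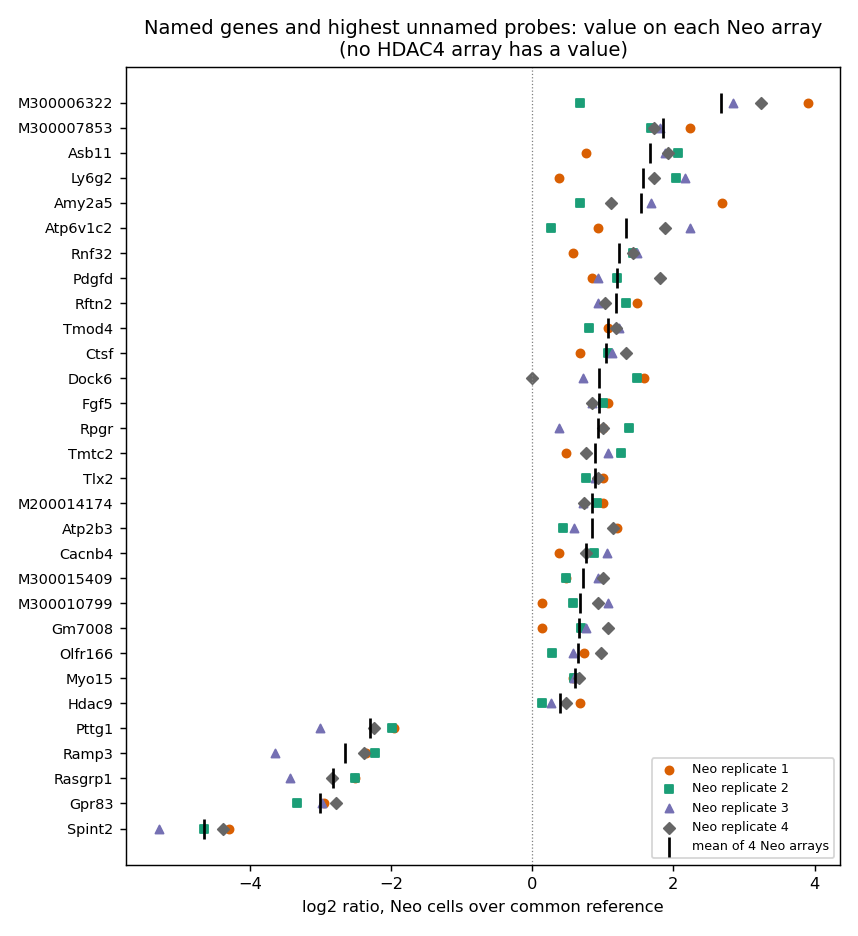
Log2 ratio of Neo cells over the reference (horizontal) on each of the 4 Neo arrays for the genes and probes named by a stated rule (top to bottom), with the mean as a bar; no HDAC4 array has a value. Asb11 is the highest named gene and Spint2 the lowest, and the array with the lowest value changes from gene to gene.

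At the other end were named genes whose reference signal far exceeded that of the cells. Spint2, a Kunitz-type protease inhibitor of epithelia, had no HDAC4 value on its member probe and ratios of 0.0511, 0.04, 0.0255 and 0.0481 on Neo replicates 1 to 4 (log2 mean -4.65 ± 0.45, SD, n = 4). Gpr83, a G protein-coupled receptor, had a mean of -3.01 ± 0.23, and Rasgrp1, an exchange factor for Ras, one of -2.82 ± 0.44 (SD, n = 4 Neo arrays each). Ramp3, which modifies calcitonin family receptors, had a mean of -2.66, and Pttg1, the securin of sister chromatid separation, one of -2.29. In Spint2, Rasgrp1, Ramp3 and Pttg1 Neo replicate 3 was the lowest array.

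Of the members without a gene name the highest was probe M300006322, with no HDAC4 value and floor values of 15, 1.6, 7.2 and 9.5 on Neo replicates 1 to 4 (log2 mean 2.67, the highest of all members). Neo replicate 2 lay far below the others. M300007853 had no HDAC4 value and 4.7, 3.2, 3.5 and 3.3, all floor values. M200014174, M300015409 and M300010799 had mean Neo log2 ratios of 0.84, 0.72 and 0.68. No gene is assigned to these probes here.

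The share of probes without HDAC4 values varied with the Neo level where the reference was at the floor. Among the 352 probes with floor values on all 4 Neo arrays, 15 (4.26%) had no HDAC4 value. The number was 4 of 11 at a mean Neo log2 ratio under 0.5, 4 of 31 from 0.5 to 1, 3 of 44 from 1 to 1.5, 3 of 39 from 1.5 to 2, and 1 of 64 from 2 to 3. It was 0 of 54 from 3 to 4 and 0 of 109 at 4 or more. Very high ratios carry so few decimals that they can land on the grid whatever the reference signal. The range of 4 or more may thus hold probes whose reference was not at the floor. The first of these ranges holds few probes. For probes with no floor value the share was 0.49% (75 of 15321), and it did not fall steadily with the level: it was 2 of 253 probes under -3, 23 of 2290 from -1 to -0.5, 8 of 3292 from 0 to 0.5, and 0 above. These shares describe the members by values the rule used, and carry no test.

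**Figure D4:**
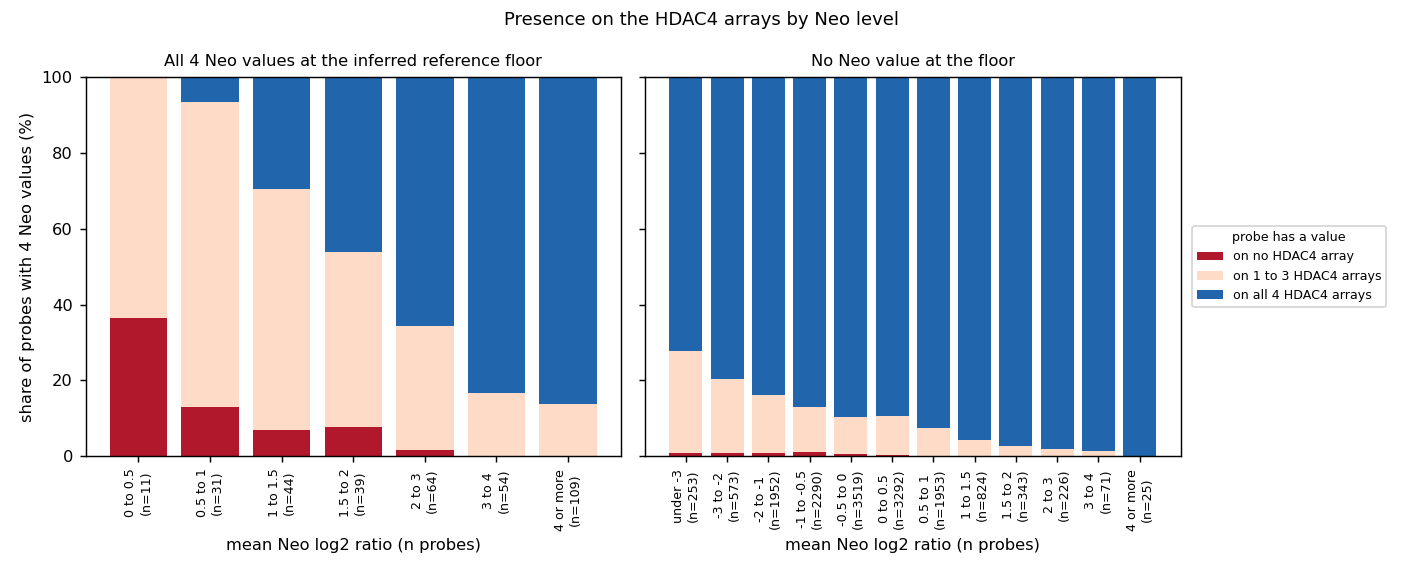
Share of probes with 4 Neo values (vertical, %) that had a value on no, 1 to 3 or all 4 HDAC4 arrays, by mean Neo log2 ratio (horizontal, n probes below each bar), for probes with 4 floor values (left) and none (right). On the left 4 of 11 probes in the lowest range had no HDAC4 value and 0 of 54 from 3 to 4, and on the right the share without HDAC4 values was at most 23 of 2290.

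The gene lists held few members. Over the 12 lists, 5 of 355 probes with a value were members (1.41%), against 0.706% of all 15157 named probes with a value. The 5 are Asb11, Tmod4, Hdac9, Pdgfd and Ctsf, and the lists were drawn up with 4 of them known. No probe was a member among 28 for excitation-contraction coupling, 27 for muscle energy use, 29 for the dystrophin-glycoprotein complex other than Dmd, 22 for the neuromuscular junction, 41 for extracellular matrix, 31 for interferon-stimulated genes and 28 for the cell cycle. Just outside the rule, with 3 Neo values and no HDAC4 value, were probes of Lama2, Nos1, Sparc, Ctsh, Oas1a and Oasl1. With 4 Neo values and 1 HDAC4 value were probes of Ppargc1a, Cpt1b, Pgk1, Kcna7 and Ifit2.

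Ppargc1a, the coactivator of mitochondrial biogenesis PGC-1 alpha, had 1.7 on HDAC4 replicate 1 alone and 3.8, 1.868, 2.487 and 2.359 on Neo replicates 1 to 4. Cpt1b, the muscle carnitine palmitoyltransferase, had 1.1 on HDAC4 replicate 1 alone and 1.105, 0.903, 1.032 and 0.904 on Neo arrays. The HDAC4 value lay below all Neo values in Ppargc1a and within their range in Cpt1b.

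Whether the genes as a whole went unmeasured in HDAC4 cells was read from their other probes, which the rule did not use but which come from the same arrays. Of the 106 named genes 46 had other probes, 97 in number, and 19 of these were empty throughout. Of the 78 with a value 40 (51.3%) had more Neo than HDAC4 values and 3 (3.85%) had fewer, where all other probes gave 31.4% and 3.82%. In 35 of the 46 genes with other probes, another probe had a value on at least 1 HDAC4 array. The 71 genes with no HDAC4 value on any probe include every gene with the member probe alone. For such genes the rule fixed the outcome, so they do not answer the question. Array signal from HDAC4 cells was thus listed for 35 of the 46 genes with other probes. The 46 include genes such as Cacnb4 and Rasgrp1, whose other probe was empty on every array, and these do not answer the question either.

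Of these other probes 41, from 27 genes, had at least 3 values in each group and entered the limma fit of HDAC4 minus Neo over 16748 probes. In that fit 21 probes (0.125%) passed an adjusted p of 0.05, 20 lower and 1 higher, while 9 passed once replicate number entered as a block. None of the 41 passed in limma in the fit without the block, with 4 (9.76%) at an unadjusted p under 0.05, all on the lower side, against 1177 (7.03%) of all probes tested, of which 737 were lower. Fits with 1 array left out again took probes with at least 3 values in each group, 15168 to 16361 of them. The count passing was 88 without HDAC4 replicate 1, 3 without HDAC4 replicate 2, 9 without HDAC4 replicate 3 and 2 without HDAC4 replicate 4. It was 74 without Neo replicate 1 and 0 without each of Neo replicates 2, 3 and 4, where 915, 957 and 936 probes had an unadjusted p under 0.05 in limma. The median log2 change of the 41 was -0.05, with 22 below 0 and 19 above, beside a median of -0.0036 over all probes tested. Its sign turned to 0.0628 over probes with values on all 8 arrays, 0.0199 without HDAC4 replicate 1, 0.0110 without HDAC4 replicate 4, 0.0266 without Neo replicate 2 and 0.0402 without Neo replicate 3, and the median was -0.124 without HDAC4 replicate 2 and -0.171 without Neo replicate 4. With replicate 1 as a batch 2 of 41 other probes passed, beside 108 of all 16748 probes tested. Without both arrays numbered 1 it was 2 of 46, beside 268 of all 17714 tested. Without HDAC4 replicate 1 it was 1 of 31, beside 88 of all 15635 tested. The groups did not overlap in 3 of the 41 with HDAC4 lower and in 0 with HDAC4 higher, against 3.18% and 2.07% of all probes tested.

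The smallest p belonged to other probes of Tmtc2, Spint2, Itgb6, Rftn2 and Cul1, whose means are given with each array centred on its median. On probe M200007921, Tmtc2 had a mean log2 ratio of 0.51 ± 0.71 in HDAC4 (SD, n = 3) and 2.04 ± 0.40 in Neo (SD, n = 4). On HDAC4 replicates 1, 3 and 4 the ratios were 2.5, 1 and 1.2, all floor values, as were 2 of the 4 Neo values. The change was -1.53 ± 0.34 (SE; limma adjusted p = 0.240), and the groups did not overlap. Its further probe M300010207 gave -0.49 ± 0.25 (SE; limma adjusted p = 0.783), so the probes of the gene leaned the same way without passing.

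Rftn2 was well above the reference on M300004869, at 3.74 ± 0.28 in HDAC4 and 4.36 ± 0.47 in Neo (log2, SD, n = 4 each), with a change of -0.62 ± 0.24 (SE; limma adjusted p = 0.639). Itgb6, the integrin beta 6 chain, stood at 2.51 ± 0.52 in HDAC4 and 3.44 ± 0.49 in Neo on M200008842 (log2, SD, n = 4 each), with a change of -0.93 ± 0.30 (SE; limma adjusted p = 0.512). Spint2 on M300007301 stood at -4.39 ± 0.67 in HDAC4 and -3.28 ± 0.30 in Neo (log2, SD, n = 4 each), with a change of -1.11 ± 0.31 (SE; limma adjusted p = 0.373). The HDAC4 and Neo arrays overlapped in these probes of Rftn2, Itgb6 and Spint2. On those of Rftn2 and Itgb6 all 4 HDAC4 values and 2 of the 4 Neo values were floor values.

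Cul1, a scaffold of SCF ubiquitin ligases, had 2 other probes with values on all 8 arrays, and their changes were -0.28 ± 0.12 and -0.27 ± 0.12 (log2, SE; limma adjusted p = 0.710 and 0.745). Each of the HDAC4 values was under each of the Neo values on both probes, by a small amount. Pola2, a subunit of DNA polymerase alpha, had 2 such probes with changes of 0.21 ± 0.16 and 0.17 ± 0.14 (log2, SE; limma adjusted p = 0.888 and 0.895). Both probes were measured on all 4 HDAC4 arrays, although the member probe of the gene had no value there. Aldh3b1, an aldehyde dehydrogenase, had a change of 0.24 ± 0.34 (log2, SE; limma adjusted p = 0.944) on its other probe with values in both groups. Pola2 and Aldh3b1 were picked after their values were seen.

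The marker genes with other probes are Asb11 and Pdgfd. On M300007696, Asb11 had floor values of 1.4, 1.7 and 1.3 on HDAC4 replicates 1, 3 and 4 and ratios of 1.2, 2.8, 4.4 and 2.2 on Neo replicates 1 to 4, with a change of -0.72 ± 0.38 (log2, SE; limma adjusted p = 0.798). On M200007342 it had 1.9 on HDAC4 replicate 3 alone and 7.1, 5.7 and 7.7 on Neo replicates 2 to 4. Neo replicate 1 was low or missing on all 3 probes of Asb11, and the other Neo arrays lay above the HDAC4 values of the same probe. Pdgfd on M300008022 had 2, 1.4 and 1.9 on HDAC4 replicates 1, 3 and 4 and 3.2, 2, 3.6 and 0.595 on Neo replicates 1 to 4, with a change of -0.14 ± 0.57 (log2, SE; limma adjusted p = 0.980). Here Neo replicate 4 was the lowest array, though on the member probe it was the highest. Pdgfd probe M300008021 had no HDAC4 value and floor values of 1.7 and 1.1 on Neo replicates 1 and 2 alone.

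**Figure D5:**
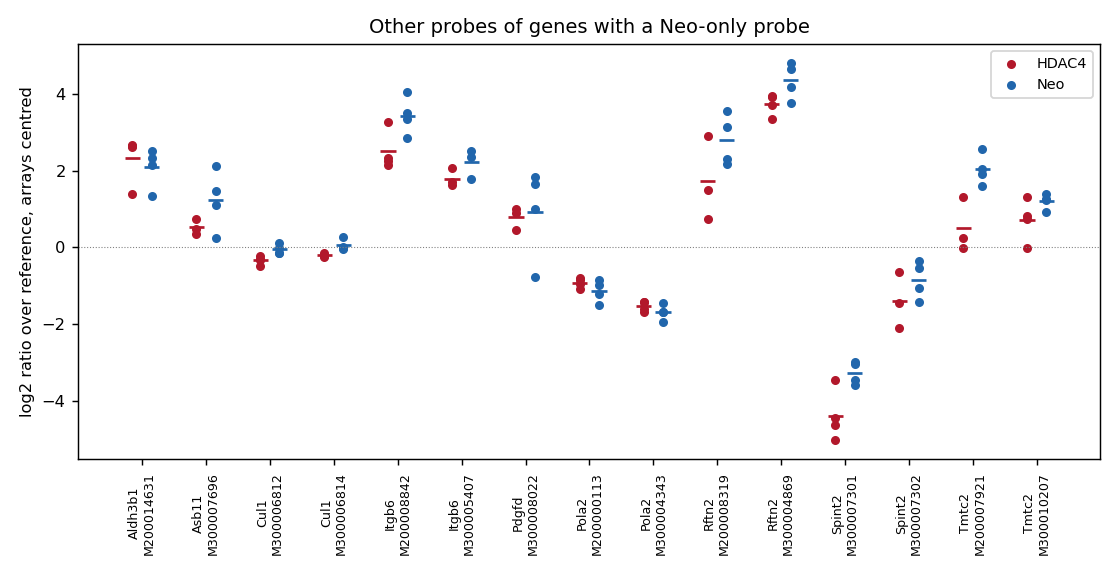
Log2 ratio over the reference, arrays centred on their medians (vertical), of other probes of 9 genes with a member probe (horizontal), in HDAC4 (red, left of each pair) and Neo arrays (blue, right), with bars at the means. HDAC4 and Neo points separate for Tmtc2 M200007921 and both Cul1 probes and overlap for the rest.

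The opposite class holds Nqo2 and an unnamed probe. Nqo2, which encodes a quinone reductase, had ratios of 1.2, 1.5, 1 and 2.054 on HDAC4 replicates 1 to 4 and no Neo value on this probe (log2 mean 0.47 ± 0.45, SD, n = 4 HDAC4 arrays). Another Nqo2 probe had a Neo value, since 0 genes of this class lacked Neo values on every probe. Probe M300020564 had 1.2, 0.965, 1.352 and 1.674 on the HDAC4 arrays and no Neo value (log2 mean 0.35 ± 0.33, SD, n = 4). Nqo2 had 3 floor values and M300020564 had 1, and neither reached a mean log2 ratio of 0.5, against 32 of the 165 Neo probes. Just outside this class were 6 probes with 3 HDAC4 values and no Neo value, and 4 probes with 4 HDAC4 values and 1 Neo value. Of the 15037 probes with 4 HDAC4 values 98.1% had all 4 Neo values, while 85.1% of the 17324 probes with 4 Neo values had all 4 HDAC4 values.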

How the data were processed

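RNA of 4 HDAC4 and 4 Neo samples was hybridised to 2-colour arrays, 1 array a sample. The deposited values are log2 ratios made by the authors, with missing entries. The sources used here do not give the background correction, the normalization or the reason for missing entries. Probe genes came from the platform annotation, with symbols updated through RefSeq (41 identifiers unmatched).

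Presence was counted per probe with pandas 2.3.3. A floor value has 10 times its ratio within 0.001 of a whole number and at least 10. Probes with 3 or more values in each group were centred on the array median and fitted with limma 3.58.1 in R 4.3.3 (lmFit, eBayes, Benjamini-Hochberg, threshold 0.05), a step tested on simulated data. The number of arrays limits the precision.

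Named genes were the markers, members in the gene lists, the 15 highest and 5 lowest other named members, the 5 highest unnamed ones, the opposite class, and the 5 other probes with the smallest p. Members and lists were chosen with earlier results of these data known. Same-numbered HDAC4 and Neo arrays deviated together (r = 0.531, 0.3095, 0.2077 and 0.1148 for replicates 1 to 4 over 14746 probes). HDAC4 replicates 3 and 4 correlated more with Neo replicate 2 (r = 0.2236 and 0.2655), so their numbers gave no clear pairs. The main fit, with each change and adjusted p given per probe, took no account of pairs. Alternatives were a replicate block, replicate 1 as a batch, each array left out, and looser or stricter presence rules.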

Additional observations from a re-analysis of the deposited data

Results flagged for a closer look

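The rule for a sample far from its group would flag about 1 in 20 groups of 4 normally distributed values. That rate need not hold here, since floor values lie on a grid and can tie. A sample far from the others of its group was found in 7 of 86 groups of 4 arrays tested. On Neo arrays, these were Asb11 on replicate 1 (log2 ratio 0.77), Rnf32 on replicate 1 (0.58), Myo15 on replicate 4 (0.67), Ramp3 on replicate 3 (-3.65), Ucma on replicate 4 (0.66) and Adgrg7 on replicate 3 (-0.14). On HDAC4 arrays it was Itgb6 probe M200008842 on replicate 1 (3.29). The other 3 Myo15 ratios lay between 1.5 and 1.512.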

How the results depend on the processing

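The number of members depends on the rule. It was 165 as reported, 640 with at least 3 Neo values and no HDAC4 value, 547 with 4 Neo values and at most 1 HDAC4 value, 32 and 11 with a mean log2 ratio of at least 0.5 and 1, and 71 as genes with no HDAC4 value on any probe. The 71 include every gene whose only probe was the member. It was 588 without both arrays numbered 1 and 189 to 403 with 1 array left out, which can only raise it. The opposite class held 8, 6, 0, 0, 0 and 7 under these rules in that order, and 2 to 7 with 1 array left out, the 7 being without HDAC4 replicate 1. The members' median Neo log2 ratio was 0.38 over floor values alone, 0.125 with at least 3 Neo values and 0.0018 to 0.0966 with 1 array left out. The limma count of 21 was 9 with the replicate block, 108 with replicate 1 as a batch, 268 without both arrays numbered 1, and 0 to 88 with 1 array left out. The median log2 change of the other probes was -0.05 as reported, 0.0628 over probes with values on all 8 arrays and -0.171 to 0.0402 with 1 array left out, so its sign was not the same throughout. The causes were not tested. Missing values and signal near the floor limit what can be said of the members: a missing value is not a level of 0.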

Other observations

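Further members were grouped by role after their values were seen, and all of the member probes lacked HDAC4 values by the rule. Of 10 immune and blood cell genes, 2 had a mean Neo log2 ratio above 0. Il6, the cytokine interleukin 6, had its highest ratio, 1.436, on Neo replicate 1 and its lowest, 0.282, on Neo replicate 4. Cybb, the catalytic subunit of the phagocyte NADPH oxidase, lay at a mean log2 ratio of -1.83. Mcpt8, a mast cell and basophil protease, had 0.0813 on Neo replicate 1 and 1.8, 3.9 and 2.3 on the others. All 4 cell division genes lay below 0 on their member probes, with Pttg1 at -2.29, Pola2 at -1.05, Tacc3, a spindle protein, at -0.97 and Cul1 at -0.20. All 4 were measured in HDAC4 cells on other probes, of which those of Pola2 and Cul1 are given above. Pttg1 on M300002172 had a change of 0.12 ± 0.32 (log2, SE; limma adjusted p = 0.969). Tacc3 on M200005723 had one of 0.44 ± 0.24 (log2, SE; limma adjusted p = 0.805).

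All 7 sensory receptor and phototransduction genes lay above 0, between 0.12 and 0.64. Of 520 olfactory receptor probes with a value 4 were members (0.769%), against 0.706% of all named probes, and such probes may report relatives. In the Wnt pathway, Axin2, a scaffold and target of the pathway, had member ratios of 1.6, 1.347, 1.059 and 1.2 on Neo arrays. A different Axin2 probe, M300000021, had 0.785, 1.451, 1.216 and 0.821 on the HDAC4 arrays and 1.259, 0.659 and 1.657 on Neo replicates 2 to 4. Axin2 was therefore measured in HDAC4 cells on another probe, where the groups overlapped. Its probe M300000019 had 0.457 on HDAC4 replicate 4 alone and 0.778, 0.728, 0.749 and 0.331 on Neo replicates 1 to 4. Its probe M300000023 had 2 HDAC4 values and 3 Neo values.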
